A study of Homo sapiens with 6 samples.

Results

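The expressed ZNF genes, zinc finger genes named ZNF and a number, were examined in xenograft tumors of the human triple-negative breast cancer line MDA-MB-231. The members were selected on their measured level: a gene belonged to the set when it was protein-coding, carried a symbol of ZNF with digits and at most 1 final letter, and had a mean of at least 5 TPM (a unit of transcript abundance corrected for transcript length and scaled to the same total in each library) over all 6 samples. This rule took 131 of the 510 protein-coding ZNF genes among 60671 annotated genes, and 40 of the members lay on chromosome 19 and 91 on other chromosomes. RNA was sequenced from the tumor core (TC) in 3 samples and from the tumor margin (TM) in 3 samples. In both groups wild-type MDA-MB-231 cells had been injected with Matrigel into the fourth mammary fat pads of female NSG mice aged 6 to 8 weeks, and no further treatment was labelled. The groups therefore share 1 cell line and 1 host strain, which lacks T, B and natural killer cells but keeps myeloid and stromal cells. The paper states that core and margin regions of the tumors were separated, with 3 mice per group, so samples of both groups may come from the same tumors. Nothing in the labels ties a core sample to a margin sample of the same tumor. The samples were therefore compared as unpaired, and p-values measure only the spread between these samples.

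Most ZNF proteins carry a row of Cys2-His2 fingers, in which a pair of cysteines and a pair of histidines hold a zinc ion while neighbouring residues read bases of DNA or RNA. Many of them begin with a KRAB domain, which recruits the co-repressor TRIM28 and through it the histone H3 lysine 9 methyltransferase SETDB1, and this system is known for silencing transposable elements. The family expanded by tandem duplication, above all in clusters on chromosome 19, and the members outside those clusters include older genes with roles in spindle assembly, ribosome maturation and general transcription.

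The unit that defines the family is shown for members on which the comparison below turns. The coding sequences of single fingers were read from the longest complete coding sequence of each gene in GENCODE v29 on GRCh38, 5′ to 3′ on the coding strand, with the codons of the zinc-binding cysteines and histidines in capitals. ZNF224 and ZNF692 held the members' lowest TC minus TM differences, ZNF585A was the only member above TM in every TC sample, its neighbour ZNF585B shows how alike copies can be, and ZNF207 has a single match to the finger pattern. The first 4 fingers lie within 1 coding exon each, at chr19:44107448-44107510 on the plus strand for ZNF224, at chr19:37152435-37152497 on the minus strand for ZNF585A, at chr19:37186073-37186135 on the minus strand for ZNF585B, and at chr1:248850702-248850764 on the minus strand for ZNF692. The finger of ZNF207 is joined from exons that span chr17:32351853-32358508 on the plus strand.
ZNF224 finger 10: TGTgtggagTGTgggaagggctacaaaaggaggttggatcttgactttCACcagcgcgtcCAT
ZNF585A finger 11: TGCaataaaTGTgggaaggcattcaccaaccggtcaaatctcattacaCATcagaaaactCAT
ZNF585B finger 11: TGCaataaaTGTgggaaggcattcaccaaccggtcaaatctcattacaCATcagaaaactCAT
ZNF692 finger 3: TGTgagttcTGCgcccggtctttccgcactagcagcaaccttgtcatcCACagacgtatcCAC
ZNF207 finger 1: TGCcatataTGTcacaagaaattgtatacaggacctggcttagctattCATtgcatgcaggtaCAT

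The printed fingers of ZNF585A and ZNF585B were identical at 63 of 63 bases. Over the whole coding sequence, 43.2% of the 50-base words of ZNF585A also occurred in transcripts of other ZNF genes. Reads from such stretches can be split between copies, so the level of ZNF585A is uncertain. The share exceeded 10% in 4 more members, at 51.6% for ZNF286A, 18.2% for ZNF468, 14.5% for ZNF354A and 11.5% for ZNF746. Of the 131 members, 42 overlapped another annotated gene on the same strand and 73 on the opposite strand, and the methods name an orientation mode for the alignment, while the use of strand in the quantification is not given in the sources used here.

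To describe which ZNF genes were expressed, their mean levels were compared between chromosome 19 and the rest of the genome. On chromosome 19, 40 of 247 genes reached 5 TPM (16.2%), against 91 of 263 elsewhere (34.6%). At the low end, 55 genes on chromosome 19 and 38 elsewhere stayed under 0.1 TPM. Among the members the mean level had a median of 10.6 TPM and ran from 5.02 to 87.2 TPM, with a median of 9.59 TPM on chromosome 19 and 11.1 TPM on other chromosomes. Only 22 members reached 20 TPM, 7 on chromosome 19 and 15 elsewhere.

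**Figure D1:**
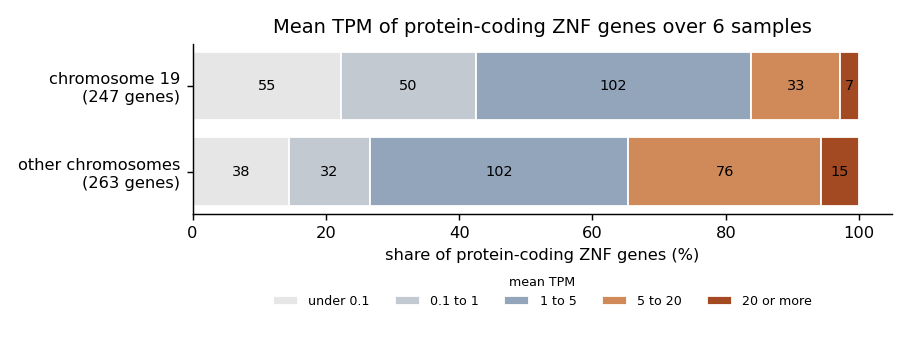
Share of the protein-coding ZNF genes (x axis, percent) in 5 classes of mean TPM over 6 samples, for the 247 genes on chromosome 19 and the 263 on other chromosomes. Numbers in the bars count genes; the classes from 5 TPM upward hold 40 genes on chromosome 19 and 91 elsewhere.

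Protein features that the rule did not use also differed along this line. A pattern for the KRAB A box matched 299 of the 510 genes, of which 36 (12%) reached 5 TPM, against 95 of the 211 genes without a match (45.02%). The pattern misses divergent boxes, so these shares are approximate. Of the 36 matched members 20 lay on chromosome 19. The finger pattern was found a median of 8 times per member, 11 times on chromosome 19 and 7 times elsewhere, with a range of 0 to 31. At least 10 fingers were found in 24 of the 40 chromosome 19 members and in 25 of the 91 others, and ZNF142 had the most (31). No match was found in 6 members, all outside chromosome 19.

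Promoter windows of 300 bases (250 before and 50 after the RefSeq gene start, GRCh38.p14) were matched for 109 of the 131 members. The letters GGGCGG, the GC box bound by SP1 and related factors, were sought on both strands with overlaps allowed and occurred in 70.6% of the members' windows, against 44.6% of all 27305 windows. TATAAA occurred on either strand in 2.75% of the members' windows, against 12% of all windows. The members' windows held a median of 25 CG dinucleotides, against 14 over all windows. The members were selected on level and the 27305 windows were not. No comparison with windows of other expressed genes was made, so these contrasts cannot be taken as traits of ZNF genes. Of 28 windows from members whose TC values all lay below their TM values, 18 held a GC box (64.3%), against 59 of 80 windows (73.8%) from members whose groups overlapped. The windows of ZNF865 (chr19:55605397-55605696, plus strand) and ZNF276 (chr16:89720752-89721051, plus strand) are shown as members of the first kind with more than 1 GC box, in capitals. ZNF865 held 4, some of them overlapping, and ZNF276 held 2 on opposite strands.
ZNF865 promoter: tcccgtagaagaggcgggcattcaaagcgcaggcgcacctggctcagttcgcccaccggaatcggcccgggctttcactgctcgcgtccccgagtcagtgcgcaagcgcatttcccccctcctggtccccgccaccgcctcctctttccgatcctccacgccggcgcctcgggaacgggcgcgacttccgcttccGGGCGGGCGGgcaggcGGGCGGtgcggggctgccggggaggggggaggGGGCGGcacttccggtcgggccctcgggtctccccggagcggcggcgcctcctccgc
ZNF276 promoter: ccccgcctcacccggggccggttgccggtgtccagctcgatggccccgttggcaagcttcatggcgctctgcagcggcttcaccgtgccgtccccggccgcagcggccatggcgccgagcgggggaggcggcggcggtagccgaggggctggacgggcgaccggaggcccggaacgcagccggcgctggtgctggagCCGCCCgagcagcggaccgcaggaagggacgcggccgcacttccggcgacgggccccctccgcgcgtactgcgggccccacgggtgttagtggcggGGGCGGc

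Before the comparison the libraries were examined. The vimentin, keratin 8 and 18, CD44 and EGFR transcripts of the line were present in all 6 samples, and ESR1, PGR and CDH1 stayed under 0.4 TPM, while ERBB2 lay between 22.3 and 40.7 TPM. Of the deposited columns, TM replicate 3 stood apart: it had values above 0 at 4 of the 259 loci assembled outside the annotation, against 203 to 214 in the other samples, and summed to 994381 TPM instead of 1000000. Mitochondrially encoded genes took 6.08% to 8.82% of TPM in TC and 9.23% to 11.1% in TM, and ribosomal protein genes 24.4% to 26.8% in TC and 19.8% to 23.9% in TM. MALAT1, a nuclear RNA, had 4.21 to 7.54 TPM in TC and 23.8, 27.4 and 89.7 TPM in TM replicates 1 to 3. The part of these measures in the results below was not tested, except where a rescaled value stands beside a result.

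Marker genes of host cell types were also examined, as rows of human genes. The host is a mouse and the labels name hg38, so which cells these transcripts came from was not tested. Summed over 11 skeletal muscle markers, TPM ran from 4.37 to 8.27 in TC and reached 194, 529 and 3.14 in TM replicates 1 to 3, and over 10 fibroblast markers it ran from 67.7 to 227 in TC and reached 481, 1009 and 95.2 in TM. The fibroblast sums came mostly from COL1A1, COL1A2 and COL3A1. Of that list, LUM (mean 0.22 TPM in TC and 0.06 TPM in TM) and PDGFRA (0.20 and 0.15 TPM) were higher in TC, and the others had lower means in TC. Sums over 6 macrophage markers were 95.3 to 106 TPM in TC and 102 to 108 TPM in TM, nearly all from CD68 and ADGRE1. Endothelial markers (5 genes) summed to 2.94 to 6.78 TPM over all samples, adipocyte markers (5 genes) to 0.29 to 0.86 TPM with ADIPOQ and LEP listed at 0 throughout, and erythroid markers (5 genes) to 0.29 to 6.93 TPM with HBA2 listed at 0. The members' centred median was highest in TM replicate 3, in which the muscle markers were lowest among the 6 samples.

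To determine whether the ZNF genes differed between core and margin, TC was compared with TM by limma on log2(TPM + 1) with Benjamini-Hochberg adjustment across 13861 genes, those at or above 1 TPM in 3 or more of the 6 samples. All 131 members passed this filter. No member passed the adjusted threshold of 0.05 (0 of 131), while 19 of all genes tested (0.137%) did and were called. The smallest adjusted p-value among members was 0.0843 for ZNF692. Below 0.05 before adjustment, 16 members (12.2%) were lower in TC, against 14.2% of all genes, and 0 were higher, against 1.93%. With all samples, the share of members lower in TC by this test was thus close to that of all genes. Without TM replicate 2 the count of lower members was 26 of 131 in place of 16, against 11.7% of all genes. In that fit the members' share lay above that of all genes. Over the other single samples left out the count ran from 11 to 21, against 9.73% to 16.8% of all genes.

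Considering only the order of the samples, 36 members (27.5%) had every TC value below every TM value, against 18.9% of all genes. In the opposite direction stood 1 member (0.763%), against 3.28%. The lower members comprised 8 of 40 on chromosome 19 and 28 of 91 on other chromosomes. Among them ZNF224, ZNF142, ZNF789 and ZNF784 had TC means of 3.01, 4.22, 4.02 and 4.75 TPM and met the threshold of 5 TPM through TM. The TC minus TM difference was below 0 in 103 members (78.6%), 29 on chromosome 19 (72.5%) and 74 elsewhere (81.3%), against 67.0% of all genes tested. A closer comparison is with protein-coding genes outside the set with a mean of at least 5 TPM. Of these, 73.5% of 570 on chromosome 19 and 67.2% of 8446 elsewhere lay below 0. Every TC value lay below every TM value in 28.8% of them on chromosome 19 and 19.97% elsewhere. By both shares the chromosome 19 members thus did not exceed other genes of their chromosome, while the members elsewhere lay above the other genes there. In bulk tissue, fewer cells of a type and less RNA per cell cannot be told apart.

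The median difference on the log2(TPM + 1) scale was -0.25 over the members, -0.22 over the chromosome 19 members and -0.29 over the others, against -0.14 over all genes tested. Among protein-coding genes with a mean of at least 5 TPM and outside the set, the median was -0.19 for 570 genes on chromosome 19 and -0.13 for 8446 genes elsewhere. Each of these medians lay below 0 on the deposited scale. After rescaling by median-of-ratios factors the median of all genes was 0.021, and the members are therefore also given relative to it: chromosome 19 members lay 0.085 below the median of all genes and the other members 0.15 below on the deposited scale, and 0.085 and 0.13 below after rescaling. With that rescaling 77 members lay below 0 (58.8%), against 47.3% of all genes, and the test before adjustment gave 11 lower and 3 higher members in place of 16 and 0, against 7.65% and 5.76% of all genes. Quantile normalization gave 75 members below 0 (57.3%, against 48.3% of all genes). By that test 10 of the 131 members were then lower and 4 higher, against 8.11% and 5.32% of all genes.

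**Figure D2:**
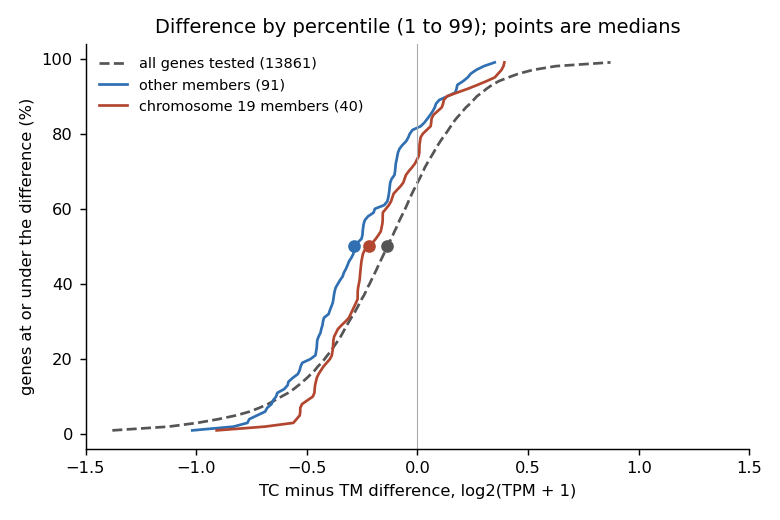
TC minus TM difference on the log2(TPM + 1) scale (x axis) against the percentile of genes (y axis, 1 to 99) for 40 chromosome 19 members, 91 other members and all 13861 genes tested. Points mark the medians, at -0.22, -0.29 and -0.14.

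The values of the chromosome 19 members and of the others were then followed over the samples, as a description with no test. For this, each gene's log2(TPM + 1) was centred on its mean over the 6 samples and the median was taken over each set. The chromosome 19 members gave medians of 0.020, 0.0069 and -0.39 over TC replicates 1 to 3, and of 0.059, -0.060 and 0.37 over TM replicates 1 to 3. The other members gave 0.0052, -0.14 and -0.31 over TC and 0.22, 0.052 and 0.19 over TM. The chromosome 19 medians of TC replicates 1 and 2 thus lay between those of TM replicates 1 and 2, and their groups overlapped, whereas in the other members every TC median lay below every TM median. TC replicate 3 had the lowest median in both classes. On the deposited scale, summed TPM likewise overlapped on chromosome 19 and did not elsewhere. Over TC replicates 1 to 3 the chromosome 19 members summed to 552, 561 and 493, and over TM replicates to 554, 543 and 672. The other members summed to 1386, 1276 and 1254 over TC and to 1625, 1462 and 1479 over TM. These sums are given without rescaling. The median-of-ratios factor was lowest for TC replicate 3 (0.8646) and highest for TM replicate 1 (1.155). The separation of the other members' sums held on the deposited scale only. With each sum divided by its library's factor, TC replicate 3 came out above TM replicates 1 and 2. The groups of the other members then overlapped too. The centred medians of all genes were 0.019, -0.071 and -0.19 in TC and 0.18, 0.059 and -0.0011 in TM.

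A pair of libraries, TC replicate 3 and TM replicate 3, held most of the extreme values on chromosome 19. TC replicate 3 held the lowest value of 23 of the 40 chromosome 19 members (57.5%), against 35.8% of all genes, and TM replicate 3 held the highest value of 23 of the 40, against 19.6% of all genes. In the other members these shares were 54.9% and 30.8%. The 570 other protein-coding genes of chromosome 19 gave 30.2% and 24.7%. Without TC replicate 3 the chromosome 19 median difference was -0.087 and the other members' -0.18, and without TM replicate 3 they were -0.14 and -0.25, against -0.086 and -0.19 over all genes in the same fits. Leaving out TM replicate 3 thus placed the chromosome 19 members 0.049 above the median of all genes, while the other members stayed 0.063 below it.

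**Figure D3:**
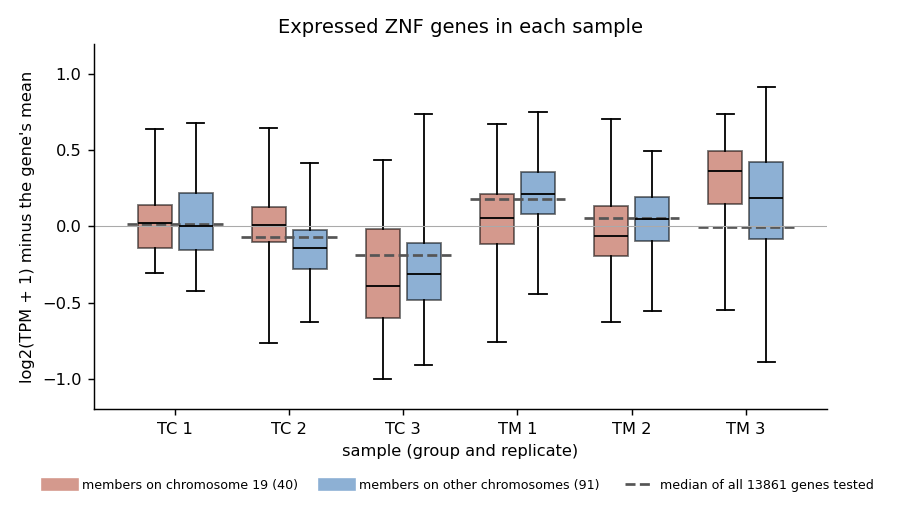
Log2(TPM + 1) minus the gene's mean over 6 samples (y axis) in each TC and TM sample for 40 members on chromosome 19 and 91 on other chromosomes. Boxes span the quartiles with the median as a line, whiskers reach the lowest and highest member, and dashed lines give the median of all 13861 genes; TC 3 has the lowest and TM 3 the highest chromosome 19 median.

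The chromosome 19 median minus the median of the other members was 0.065 with all samples and ran from -0.072 to 0.11 when single samples were left out. With the level threshold set at 2 TPM, which took 255 ZNF genes, it was 0.0016 (-0.23 in both classes), and at 10 TPM, with 71 genes, it was 0.11. The order turned without TM replicate 2, where the chromosome 19 median was -0.36 and the other -0.28. After the trends of every library with transcript GC content and length were taken out, an alternative added after the data were seen, the chromosome 19 median was 0.015 and the other -0.057, against 0.023 for all genes. Across the 131 members the difference went with the GC content of the transcripts at a Spearman's rho of -0.27, over 13772 genes at -0.29, over the 91 other members at -0.41 and over the 40 chromosome 19 members at -0.033. These correlations are across genes measured in the same 6 libraries, and genes are not independent replicates.

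**Figure D4:**
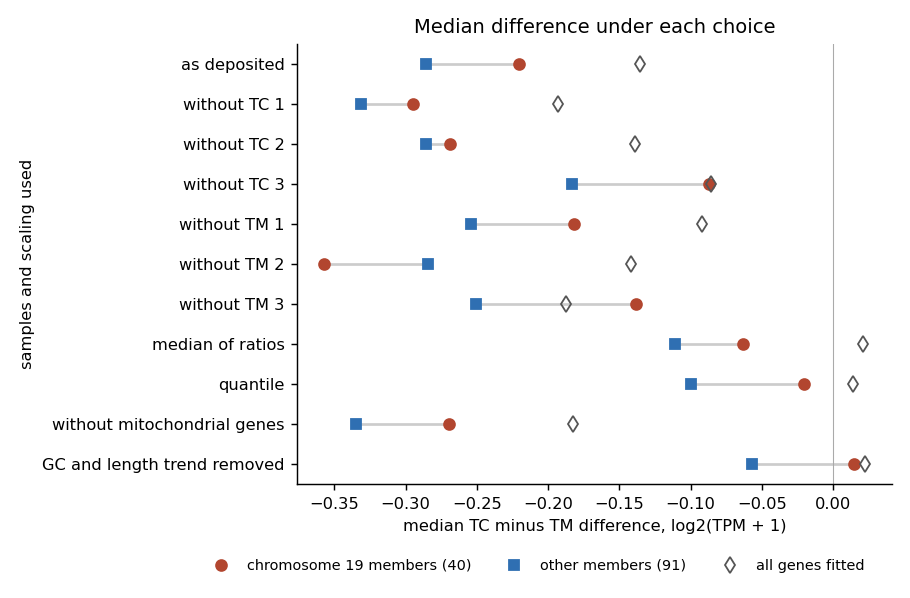
Median TC minus TM difference on the log2(TPM + 1) scale (x axis) for 40 chromosome 19 members, 91 other members and all genes fitted, with all samples, without each sample in turn and under 4 other scalings (y axis). The chromosome 19 median runs from -0.36 without TM 2 to 0.015 after removal of the GC and length trend.

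On other chromosomes, 5 members were named for the lowest differences among those whose groups did not overlap. ZNF692 (chr1:248850006-248859144, minus strand), also called AREBP and described as a repressor of a gluconeogenesis gene, had 7.85, 6.76 and 5.85 TPM in TC and 15.16, 12.54 and 18.76 TPM in TM. Its lowest TM value (12.54 TPM) lay above its highest TC value (7.85 TPM), with a difference of -1.07 ± 0.22 (SE, n = 3 per group, limma adjusted p = 0.0843). ZNF276 (chr16:89720400-89740903, plus strand) had 11.11, 8.06 and 7.72 TPM in TC and 15.95, 16.55 and 25.38 TPM in TM, a difference of -1.01 ± 0.24 (limma adjusted p = 0.101). The gene overlaps FANCA, a DNA repair gene, on the opposite strand, and overlaps of this kind also occur for ZNF384, ZNF142, ZNF224 and ZNF574, so their levels are uncertain if strand was not used. ZNF384 (chr12:6666477-6689572, minus strand), a nuclear matrix transcription factor and a fusion partner in leukemia, was the most abundant of these, with 25.79, 21.96 and 18.23 TPM in TC and 36.25, 33.55 and 43.57 TPM in TM and a difference of -0.76 ± 0.18 (limma adjusted p = 0.103).

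ZNF621 and ZNF142 had differences close to that of ZNF384. ZNF621 (chr3:40524878-40574685, plus strand), with a KRAB match, had 9.09, 7.54 and 4.46 TPM in TC and 14.50, 10.37 and 12.70 TPM in TM, a difference of -0.79 ± 0.27 (limma adjusted p = 0.205). ZNF142 (chr2:218637916-218659655, minus strand), the member with the most fingers, had 5.03, 4.0 and 3.63 TPM in TC and 9.18, 6.33 and 8.10 TPM in TM, a difference of -0.76 ± 0.23 (limma adjusted p = 0.161). Its TC mean of 4.22 TPM lay below the threshold of 5 TPM, which it met through its TM mean of 7.87 TPM. In each of these 5 genes the lowest value was in TC replicate 3, and the highest was in TM replicate 3 for ZNF692, ZNF276 and ZNF384 and in TM replicate 1 for ZNF621 and ZNF142. All 5 stayed below 0 under every alternative tried.

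A few members outside the naming rule were picked for their known roles after their values were seen. ZNF335, part of a histone H3 lysine 4 methyltransferase complex, had 10.29, 9.34 and 8.26 TPM in TC and 14.59, 13.69 and 18.69 TPM in TM (-0.69 ± 0.20, limma adjusted p = 0.144). ZNF598, the ubiquitin ligase that marks collided ribosomes, had 31.70, 30.71 and 32.59 TPM in TC and 45.58, 43.50 and 34.52 TPM in TM (-0.36 ± 0.15, limma adjusted p = 0.298). ZNF143, a factor of promoters and chromatin loops, had 8.41, 9.07 and 8.04 TPM in TC and 14.30, 10.17 and 11.41 TPM in TM (-0.44 ± 0.20, limma adjusted p = 0.329). The groups did not overlap in any of the 3, and none was called.

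On chromosome 19, ZNF224 (chr19:44094339-44109886, plus strand), a KRAB repressor of the aldolase A gene, had the lowest difference of all members. It had 4.93, 2.29 and 1.80 TPM in TC and 7.94, 6.32 and 7.66 TPM in TM, a difference of -1.12 ± 0.31 (SE, n = 3 per group, limma adjusted p = 0.137). Its mean of 5.16 TPM lay just above the threshold, and its TC mean of 3.01 TPM lay below it. Left-out samples moved its difference between -1.45 and -0.91.

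The other chromosome 19 members named for low differences were smaller in size. ZNF574 (chr19:42068477-42081549) had 11.10, 11.21 and 7.59 TPM in TC and 15.28, 11.83 and 18.76 TPM in TM (-0.57 ± 0.24, limma adjusted p = 0.288). ZNF266 (chr19:9412461-9435578) had 8.62, 5.76 and 6.40 TPM in TC and 9.27, 8.90 and 13.23 TPM in TM (-0.53 ± 0.24, limma adjusted p = 0.325). In both genes the nearest TC and TM samples were less than 1 TPM apart. ZNF865 (chr19:55605405-55617269) had 7.13, 6.69 and 6.22 TPM in TC and 9.45, 9.25 and 10.12 TPM in TM (-0.47 ± 0.18, limma adjusted p = 0.267), with the smallest spread within groups of any chromosome 19 member (SD 0.075 on the log2 scale). ZNF444 (chr19:56132599-56160893), which carries a SCAN domain for pairing with other zinc finger proteins, had 11.14, 12.30 and 12.92 TPM in TC and 15.90, 13.21 and 19.97 TPM in TM (-0.39 ± 0.20, limma adjusted p = 0.397). Its nearest TC and TM samples, at 12.92 and 13.21 TPM, were also less than 1 TPM apart.

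ZNF585A (chr19:37106734-37172741, minus strand) was the 1 member with every TC value above every TM value. It had 10.37, 11.09 and 13.98 TPM in TC and 7.76, 8.80 and 9.51 TPM in TM, a difference of 0.40 ± 0.20 (limma adjusted p = 0.385). The difference stayed between 0.28 and 0.48 when single samples were left out. Its coding sequence is shared in large part with ZNF585B, as printed above, so this value may mix both copies.

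**Figure D5:**
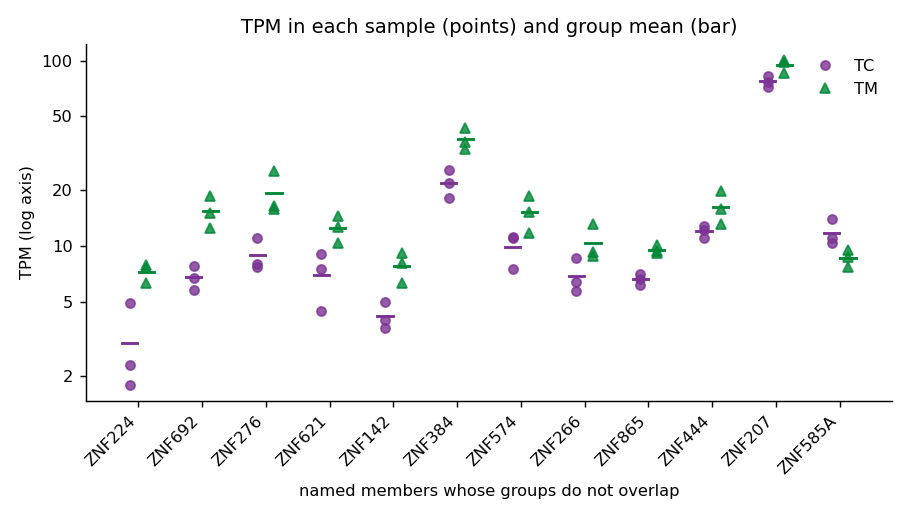
TPM (log axis) of the named members whose groups do not overlap, with a point for each of 3 TC and 3 TM samples and a bar at the group mean. In 11 of the 12 genes all TC points lie below all TM points; in ZNF585A they lie above.

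The most abundant members had differences between -0.29 and 0.24. ZNF207, the spindle assembly factor BuGZ, had 76.62, 72.29 and 83.08 TPM in TC and 100.43, 97.68 and 86.08 TPM in TM (-0.29 ± 0.13, limma adjusted p = 0.315), and was the 1 gene among the most abundant whose groups did not overlap. ZNF593, a factor of the large ribosomal subunit, had 60.53, 90.34 and 113.65 TPM in TC and 81.28, 89.83 and 58.69 TPM in TM, and ZNF622, which also matures that subunit, had 51.02, 49.77 and 52.16 TPM in TC and 51.49, 47.53 and 46.00 TPM in TM. Their differences were 0.18 ± 0.25 and 0.077 ± 0.12, with overlapping groups. ZNF622 had the smallest spread within groups of the members outside chromosome 19 (SD 0.063 on the log2 scale).

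The remaining abundant members had overlapping groups. ZNF428, the most abundant of all, had 82.12, 86.63 and 83.96 TPM in TC and 72.01, 73.86 and 124.87 TPM in TM (-0.051 ± 0.21). Its difference turned to 0.20 without TM replicate 3, the sample that held its highest value. ZNF787, ZNF581, ZNF580, ZNF146 and ZNF414 on chromosome 19 had mean TPM of 40.04, 39.8, 22.8, 23.4 and 22.8 in TC and 40.5, 33.7, 25.3, 22.9 and 22.8 in TM, with differences between -0.16 for ZNF580 and 0.24 ± 0.15 for ZNF581. The difference of ZNF581 was 0.42 ± 0.18 after median-of-ratios rescaling (limma adjusted p = 0.360). ZNF580 and ZNF581 overlap on the same strand, so reads may be split between them. ZNF706, ZNF511 and ZNF664 elsewhere had mean TPM of 64.0, 66.6 and 40.7 in TC and 67.1, 61.3 and 44.3 in TM, with differences of -0.042 ± 0.19, 0.094 ± 0.26 and -0.13 ± 0.22.

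The members' spread within groups is given as a description with no test. The median SD within groups was 0.33 on the log2 scale for chromosome 19 members and 0.27 for the others, against 0.27 for all genes tested and 0.23 for protein-coding genes with a mean of at least 5 TPM. The widest spread on chromosome 19 was in ZNF468, with 7.85, 5.04 and 3.26 TPM in TC and 4.53, 2.96 and 8.17 TPM in TM. Elsewhere it was in ZNF106, an RNA-binding protein, with 12.05, 6.73 and 8.80 TPM in TC and 14.72, 12.60 and 4.53 TPM in TM. Their groups overlapped widely, at differences of 0.060 ± 0.38 and -0.086 ± 0.40.

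Neighbouring members on chromosome 19 were then set side by side. Joining members less than 0.5 Mb apart gave 14 runs, of which 5 held 1 member, and 11 runs had a median difference below 0. Of the 9 runs with 2 or more members, 3 had every member below 0 and 6 held both signs. The run around ZNF224 (chr19:43596392-44237268) held ZNF576, ZNF428, ZNF45, ZNF224, ZNF226 and ZNF227, with differences from -1.12 for ZNF224 to 0.35 for ZNF226. ZNF226, a KRAB gene downstream of ZNF224 that was picked after its values were seen, had 18.37, 21.19 and 23.84 TPM in TC and 11.68, 16.58 and 22.26 TPM in TM, with overlapping groups. The largest run held 10 members (ZNF628, ZNF579, ZNF524, ZNF865, ZNF784, ZNF580, ZNF581, ZNF787, ZNF444 and ZNF71), with differences from -0.47 to 0.24 and 3 members whose TC values all lay below TM.

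The differences were also set out by domain content, with no test. The 36 members with a KRAB match had a median difference of -0.27, and the 95 without had -0.25. Members with 10 or more fingers (49 genes) had a median of -0.29, those with 4 to 9 (51 genes) -0.26 and those with 0 to 3 (31 genes) -0.11, against -0.14 over all genes. The class with few fingers thus lay near all genes. The shares with every TC value below every TM value did not rise evenly with finger number. They were 16.1% for 0 to 3 fingers, 39.2% for 4 to 9 and 22.4% for 10 or more, against 18.9% of all genes. Across members, Spearman's rho of the difference was -0.12 with finger number and -0.32 with protein length. In TC replicate 3 and TM replicate 3, the centred medians were -0.49 and 0.39 for members with 10 or more fingers, and -0.16 and 0.035 for those with 0 to 3. Related zinc finger genes outside the naming rule, of the ZBTB, ZSCAN, ZKSCAN and ZFP types (30 genes with a mean of at least 5 TPM), had a median of -0.29, with 4 lower in TC below 0.05 before adjustment (13.3%, against 14.2% of all genes) and 0 called.

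ZNF genes under the threshold were also examined, because the members were selected on level. The 212 tested ZNF genes with a mean under 5 TPM had a median difference of -0.15, near that of all genes, with 8 lower (3.77%) and 2 higher (0.943%) below 0.05 before adjustment, against 14.2% and 1.93% of all genes. Their mean level had a median of 2.13 TPM, against 12.1 TPM for all genes, and log2(TPM + 1) shrinks differences at such low levels. Their summed TPM was 487 ± 140 (SD) in TC and 567 ± 95 in TM, with overlapping groups, against 1841 ± 95 and 2112 ± 94 for the members. The median of -0.15 therefore does not show that these genes lacked the members' difference. Just outside the threshold on chromosome 19 were ZNF333 with a mean of 4.99 TPM and ZNF320 with 4.96 TPM, and just inside were ZNF627 with 5.02 TPM and ZNF224. Elsewhere ZNF268 (4.91 TPM) and ZNF48 (4.90 TPM) lay outside and ZNF16 (5.05 TPM) and ZNF354A (5.07 TPM) inside. ZNF268 ran opposite to most members, with 6.93, 5.70 and 5.50 TPM in TC and 3.22, 2.98 and 5.11 TPM in TM. In 17 members the TC mean was under 5 TPM, and in 3 members the TM mean was.

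Finally, chromatin genes, among them the partners of KRAB proteins, were followed in 6 lists with 35 genes, all of them tested. After adjustment in limma none was called, against 0.137% of all genes, and before adjustment 14 of the 35 (40%) were lower in TC below 0.05, against 14.2% of all genes, with 0 higher. The lists were chosen with earlier results of these data known, so this share is a description and not independent evidence. It is on the deposited scale, where 14.2% of all genes is its comparison. Median-of-ratios rescaling took the share of all genes to 7.65%. The share of the 35 genes after that rescaling is not given here, so 40% cannot be set against 7.65%. The median difference of the 35 genes was -0.33. TRIM28, the scaffold itself, had 379.81, 457.45 and 413.26 TPM in TC and 696.51, 661.58 and 448.94 TPM in TM (-0.51 ± 0.18, limma adjusted p = 0.219). Its TM replicate 3 lay below TC replicate 2, whereas the centred median of the members was highest in that library.

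The H3 lysine 9 methyltransferases and cofactors had 3 of 6 genes lower by this measure. SETDB1, recruited by TRIM28, had 9.74, 9.71 and 8.02 TPM in TC and 12.61, 11.42 and 16.22 TPM in TM (-0.50 ± 0.20, limma adjusted p = 0.279). EHMT1 had 13.96, 12.86 and 10.43 TPM in TC and 21.90, 22.62 and 26.81 TPM in TM (-0.89 ± 0.18, limma adjusted p = 0.0843), and EHMT2 differed by -0.50 ± 0.21 with overlapping groups. Of the 13 NuRD genes, which couple nucleosome remodeling to deacetylation, 6 were lower by the same measure, among them CHD3 (-0.65 ± 0.16), MTA1 (-0.61 ± 0.15) and GATAD2B (-0.59 ± 0.20). Of 8 genes of DNA methylation and chromatin, 3 were lower: DNMT1 (-0.72 ± 0.17), its partner UHRF1 (-0.76 ± 0.18) and DNMT3B (-0.68 ± 0.24), the last at a mean of only 1.89 TPM. In the same list ATRX (0.37 ± 0.29), MORC3 (0.20 ± 0.24), SMARCAD1 (0.14 ± 0.35) and DAXX (0.0065 ± 0.15) lay above 0. MORC2 (-0.63 ± 0.26) was the 1 lower gene of 4 in the HUSH silencing complex, of which TASOR (0.30 ± 0.29) and PPHLN1 (0.11 ± 0.20) lay above 0. The 3 HP1 genes gave 0 lower with a median of -0.071.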

How the data were processed

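RNA from 3 TC and 3 TM samples of MDA-MB-231 xenografts was sequenced; the titles gave each sample its group and replicate number. The authors deposited 1 table of TPM per gene, which they made by trimming paired reads. These were aligned with HISAT2, assembled with StringTie against a reference and quantified with RSEM. The labels name hg38; versions and the annotation release are not given in the sources used here, and no step that removes mouse reads was described. TPM keeps no sequencing depth, so depth is unknown, no counting interval was given, and the study's DESeq2 model could not be run. The number of other value columns was 0.

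Gene types, positions and coding sequences were taken from GENCODE v29, which held 96.3% of the annotated genes; promoters came from RefSeq (GRCh38.p14). Fingers were counted as C-X2-4-C-X12-H-X3-5-H in the translated sequence. Values were transformed as log2(TPM + 1), and TC and TM were compared by limma 3.58.1 in R 4.3.3 (mean-variance trend, two-sided, no covariate), on genes at or above 1 TPM in 3 or more samples, with Benjamini-Hochberg adjustment over all of them. The script was tested on simulated data. Lists are described by counts and medians. An exact permutation test of 3 against 3 samples cannot go below p = 0.1 and was not used.

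Named members were, on chromosome 19 and elsewhere separately, the 6 most abundant, up to 5 with the lowest and 5 with the highest difference among those with no overlap, any called, the 2 nearest the threshold and those with the largest and smallest spread; of the fixed lists, TRIM28, SETDB1 and up to 3 genes per list with an unadjusted p-value under 0.05. The members and lists were chosen with earlier results of these data known. Alternatives were another pseudocount, other filters and member thresholds, 3 scalings, other moderation, the replicate block, each sample left out, and, added after the data were seen, removal of GC and length trends.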

Additional observations from a re-analysis of the deposited data

How the results depend on the processing

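No member was called under any alternative run. Of the other counts, members lower in TC before adjustment (16) became 10 with quantile normalization, 25 without mitochondrially encoded genes, 7 with GC and length trends removed and 10 among ZNF genes with a mean of at least 10 TPM, and 11 to 26 with single samples left out. Members higher in TC (0) became 4 with quantile normalization, 3 with median-of-ratios rescaling, 2 with GC and length trends removed, 2 among ZNF genes with a mean of at least 2 TPM, and 0 to 1 with single samples left out. Of all genes, 8.11% were lower and 5.32% higher with quantile normalization, and 7.65% and 5.76% with median-of-ratios rescaling. Without mitochondrially encoded genes these shares were 16.9% and 1.44%, and with GC and length trends removed 6.87% and 6.52%. Other member thresholds left them at 14.2% and 1.93%. Over all genes, the 19 calls became 7 with a pseudocount of 0.1, 1 without a filter, 4 with quantile normalization, 6 with median-of-ratios rescaling, 12 without the trend, 47 with robust moderation, 4 with GC and length trends removed, and 1 to 17 with single samples left out. The median of the other members (-0.29) became -0.10 with quantile normalization, -0.11 with median-of-ratios rescaling and -0.057 with GC and length trends removed, under which the chromosome 19 median (-0.22) became 0.015. With single samples left out, the chromosome 19 median ran from -0.36 to -0.087 and the other from -0.33 to -0.18. The causes of these shifts were not tested.

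Differences near 0 turned in sign. Quantile normalization gave 0.014 for ZNF580, 0.034 for ZNF428, 0.013 for ZNF664, 0.086 for ZNF16, 0.11 for ZNF106 and 0.063 for ZNF706. Median-of-ratios rescaling gave 0.016 for ZNF580, 0.13 for ZNF428, 0.041 for ZNF664, 0.048 for ZNF16, 0.078 for ZNF106 and 0.13 for ZNF706. Without mitochondrially encoded genes ZNF414 had -0.042, ZNF787 -0.042 and ZNF146 -0.034. With GC and length trends removed ZNF580 had 0.041, ZNF428 0.21, ZNF664 0.11, ZNF16 0.12 and ZNF106 0.050. With single samples left out, the range was -0.55 to 0.20 for ZNF106, -0.20 to 0.31 for ZNF146, -0.34 to 0.070 for ZNF16, -0.12 to 0.31 for ZNF354A, -0.067 to 0.15 for ZNF414, -0.19 to 0.20 for ZNF428, -0.22 to 0.38 for ZNF468, -0.13 to 0.33 for ZNF511, -0.027 to 0.42 for ZNF593, -0.17 to 0.41 for ZNF627, -0.33 to 0.028 for ZNF664, -0.25 to 0.096 for ZNF706 and -0.19 to 0.20 for ZNF787.

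Same-numbered samples correlated in their deviations at 0.21, -0.12 and -0.17, and not every sample correlated best with its own number. The numbers were therefore not taken to pair samples, and a pairing in another order was not tested. With the replicate number as a block, 1 gene was called in place of 19, and 0 members were called with 15 lower in place of 16. Of all genes, 12.1% were lower before adjustment in that fit. The unknown depth and 3 samples per group limit the precision, most of all for members near 5 TPM.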
